A study of Mus musculus with 4 samples.

Results

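The growth factor and cytokine receptors considered here are 10 genes through which dendritic cells (DC) sense the factors that form, keep and restrain them: Csf1r, Flt3, Kit, Csf2ra, Csf2rb, Il3ra, Lifr, Il10ra, Ifngr1 and Ifnar1. They were chosen by name, and a probe set was taken for a member where it is annotated with that gene symbol alone. This gave 13 probe sets for 9 of the 10 genes, out of 17097 genes measured in this way, and no value was taken for Csf2ra, the alpha chain of the GM-CSF receptor. Of the 9 genes, 7 have 1 probe set, while Csf2rb and Lifr have 3 each. RNA came from spleen DC that were selected with CD11c and labelled positive for CD11c, CD80, CD86 and MHC-II. The groups were MARCO-/- DC with LPS, WT DC with LPS, MARCO-/- DC with PBS and WT DC with PBS, and each was hybridized to 1 Affymetrix mouse array. MARCO-/- mice lack the scavenger receptor MARCO in every cell, and all mice were on the background that the labels give as C56BL/6 and were 8 to 12 weeks old. LPS, the bacterial ligand of TLR4, was used at 100 ng/ml overnight. A pool held DC of 5 to 6 mice, and the sources used here do not say which pool an array's RNA came from.

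Receptors for growth factors and cytokines work by bringing chains together at the cell surface. CSF1R, FLT3 and KIT are receptor tyrosine kinases of class III, which phosphorylate themselves when M-CSF, FLT3 ligand or stem cell factor pairs them. The other members carry no kinase of their own and signal through JAK kinases bound to their tails, which activate STAT factors. FLT3 ligand drives the formation of DC from bone marrow progenitors, GM-CSF supports their survival, IL-10 restrains their activation, and interferons prime them for antigen presentation. SOCS proteins close the loop, since STAT factors induce them and they block the receptors or their JAK kinases.

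The start regions of 3 genes are shown because the receptor or its close copy stood apart in the values below: Kit differed most between the genotypes with LPS, Csf2rb2 is the neighbouring copy of Csf2rb and had the pattern nearest to it, and Ifngr1 was among the receptors that were lower with LPS in both genotypes. Each sequence holds the 250 bases before the gene's start, read 5′ to 3′ along the gene's strand from RefSeq tables of the build GRCm38.p6. Capitals mark a match to GAGGAA, the core that PU.1 recognises, or to TTCNNNGAA, the core of STAT sites, on either strand. Kit lies at chr5:75574737-75574986 on the plus strand, Csf2rb2 at chr15:78305722-78305971 on the minus strand, and Ifngr1 at chr10:19591699-19591948 on the plus strand.
Kit: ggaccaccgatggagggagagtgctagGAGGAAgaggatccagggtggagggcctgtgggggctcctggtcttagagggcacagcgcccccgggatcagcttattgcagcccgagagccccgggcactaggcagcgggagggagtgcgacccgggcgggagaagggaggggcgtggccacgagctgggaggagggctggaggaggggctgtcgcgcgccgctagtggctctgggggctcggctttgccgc
Csf2rb2: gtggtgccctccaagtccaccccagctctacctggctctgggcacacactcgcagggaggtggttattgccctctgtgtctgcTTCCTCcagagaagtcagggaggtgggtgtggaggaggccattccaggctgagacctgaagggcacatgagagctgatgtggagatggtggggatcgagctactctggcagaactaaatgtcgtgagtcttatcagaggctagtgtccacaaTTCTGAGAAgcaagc
Ifngr1: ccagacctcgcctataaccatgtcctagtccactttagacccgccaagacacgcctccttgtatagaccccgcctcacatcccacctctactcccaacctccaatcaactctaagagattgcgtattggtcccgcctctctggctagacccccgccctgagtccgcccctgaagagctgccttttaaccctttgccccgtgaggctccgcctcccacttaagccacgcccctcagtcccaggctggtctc
The 5 motifs searched on both strands were GAGGAA of PU.1, TTCNNNGAA of STAT factors, TGANTCA of AP-1, the interferon-stimulated response element and the NF-kB motif. The Kit window holds 1 GAGGAA, from 223 to 218 bases before the start. The Csf2rb2 window holds GAGGAA on the opposite strand, from 167 to 162 bases before the start, and TTCTGAGAA from 15 to 7 bases before it. No match to the 5 motifs lies in the Ifngr1 window. Over 32851 such windows of the genome, 23.3% hold GAGGAA, 7.02% TTCNNNGAA, 2.98% the interferon element, 4.65% the NF-kB motif and 6.75% TGANTCA. A match is a description of the letters. Of the 10 members, 7 are in the promoter table, and Csf1r, Csf2rb and Il10ra are not.

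The values are intensities that the authors normalized with RMA, on a linear scale, and the median of all of them was 4.87, so values near it are background. With 1 array per condition no difference has a replicate check and no test can be made, so genes were called where 2 arrays differed by 2-fold or more. Marco itself had 4.25 in MARCO-/- DC and 3.15 in WT DC with LPS, and 3.95 in MARCO-/- DC and 8.05 in WT DC with PBS, close to background throughout, and the sources used here do not place its probe set relative to the deleted part. Of 7 measured DC markers other than Flt3, all were above the median on every array, although Itgax, which encodes CD11c, had only 16.4 and 12.9 in MARCO-/- and WT DC with LPS, against 621 and 548 in MARCO-/- and WT DC with PBS. Transcripts of other cells were present. The summed intensity of 13 fibroblast and stromal markers was 64.9 on the MARCO-/- LPS array, 1867 on the WT LPS array, 587 on the MARCO-/- PBS array and 57.6 on the WT PBS array, and that of 8 skeletal muscle markers was 35.6, 751, 259.7 and 33.2 in the same order. That of 5 measured erythroid markers was 6838, 3995, 6408 and 4414 in this order.

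Of the 9 receptors, 8 were above the median of all intensities on every array, as were 9143 of all 17097 genes. In at least 1 of the 4 comparisons 7 receptors passed 2-fold, and the share of all genes that did was not counted, so nothing is read from that count. In MARCO-/- DC, 5 of 9 receptors passed 2-fold between LPS and PBS, with Csf2rb and Il3ra higher and Csf1r, Ifngr1 and Lifr lower, while 12.3% of all genes did (6.32% higher, 5.98% lower). In WT DC, 5 of 9 passed as well, with Csf2rb higher and Csf1r, Ifngr1, Lifr and Il10ra lower, while 14.5% of all genes did (6.2% higher, 8.31% lower). Calls were more frequent among brighter genes. Of 10955 genes whose highest value was above the median, 1080 were higher and 1022 lower in MARCO-/- DC, and 1054 and 1418 in WT DC. Of 4715 genes whose highest log2 value was at least 6, 632 were higher and 536 lower in MARCO-/- DC, and 606 and 735 in WT DC. The median log2 ratio of the 9 receptors was -0.18 in MARCO-/- DC and -0.92 in WT DC, against 0.00 and 0.05 over all genes. Between the genotypes, 1 of 9 receptors passed with LPS (Kit, higher in MARCO-/-), while 3.4% of all genes did (2.09% higher, 1.31% lower), and 1 of 9 with PBS (Lifr, lower in MARCO-/-), while 1.05% did (0.76% higher, 0.287% lower). One gene of 9 is a share that a single call sets, and nothing about the receptors as a group is read from it. Flt3 and Ifnar1 passed in no comparison.

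**Figure D1:**
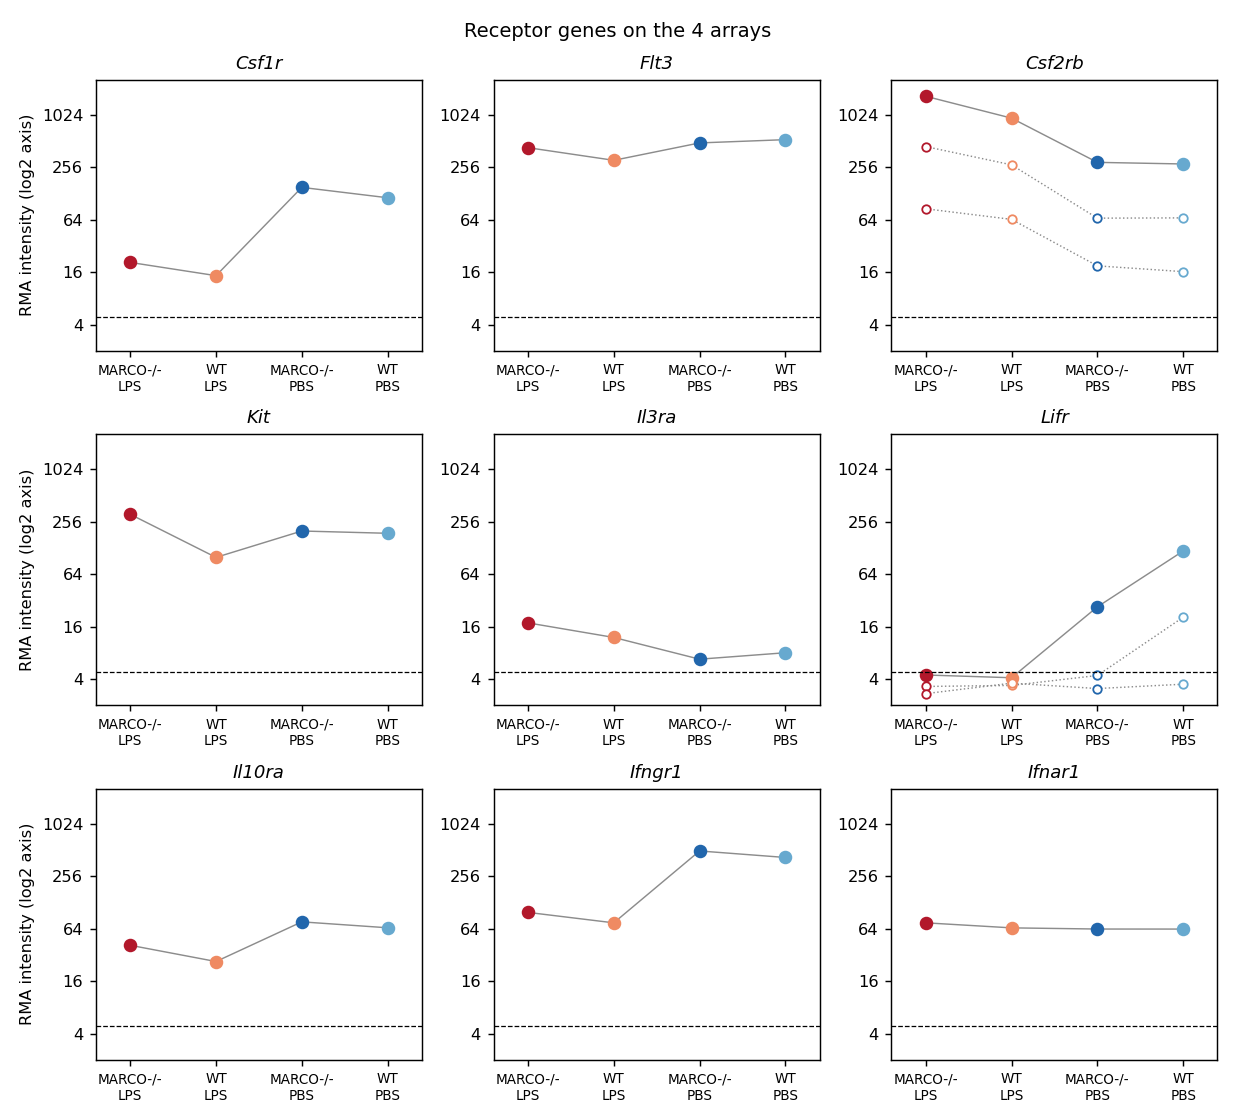
RMA intensity of each receptor on the 4 arrays (log2 axis), 1 panel per gene, with the brightest probe set as filled points, any other probe sets as open points and the median of all intensities, 4.87, as a dashed line. Csf1r, Ifngr1 and Lifr sit lower on both LPS arrays than on both PBS arrays, Csf2rb sits higher on both, and Kit is at 312 on the MARCO-/- LPS array and 99.97 on the WT LPS array.

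Among the receptor tyrosine kinases, Csf1r, the receptor of M-CSF and IL-34 that marks the macrophage and monocyte lineage, was lower with LPS by the largest factor of the members that stayed above background. Its intensity was 20.7 in MARCO-/- DC and 14.6 in WT DC with LPS, and 151 in MARCO-/- DC and 115 in WT DC with PBS. Both LPS arrays lay far below both PBS arrays, and the MARCO-/- array was the higher of the pair under each treatment. With LPS it was 7.28-fold lower in MARCO-/- DC and 7.85-fold lower in WT DC, a difference of 0.11 between the log2 ratios. Macrophage markers moved with it: 10 of 12 passed 2-fold lower with LPS in MARCO-/- DC and 11 of 12 in WT DC, and their summed intensity was 605 and 419 in MARCO-/- and WT DC with LPS, against 2969.8 and 1871 in MARCO-/- and WT DC with PBS. Of 9 monocyte and neutrophil markers, 6 were at least 2-fold lower with LPS in each genotype, and their sum was 642 and 554 in MARCO-/- and WT DC with LPS, against 2349 and 2500.4 in MARCO-/- and WT DC with PBS. Their part in the Csf1r ratio was not tested, and in RNA of a bulk sample fewer cells of a type and less RNA per cell cannot be told apart. Csf1, the gene of M-CSF, had 31.6 in MARCO-/- DC and 35.9 in WT DC with LPS, and 10.9 in MARCO-/- DC and 16.6 in WT DC with PBS, which is 2.90-fold higher with LPS in MARCO-/- DC and 2.16-fold in WT DC, though of its 3 other probe sets 1 passed in MARCO-/- DC and none in WT DC. Il34 was at background, at most 3.43 on the 4 arrays. By Euclidean distance of log2 values centred over the 4 arrays, among 1592 genes whose highest log2 value was at least 8, the genes nearest to Csf1r were Themis2, a signalling adaptor of B cells and macrophages, at 0.11, Mapk14, the kinase p38 alpha, at 0.17, and Pld4, an endosomal exonuclease, at 0.17.

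Flt3, the receptor through which FLT3 ligand drives DC development, was the steadiest of the 3 kinases. Its intensity was 431 in MARCO-/- DC and 308 in WT DC with LPS, and 489 in MARCO-/- DC and 533 in WT DC with PBS. All 4 arrays lay within 1.73-fold, and the WT LPS array was the lowest. Between LPS and PBS it was 1.13-fold lower in MARCO-/- DC and 1.73-fold lower in WT DC. The ligand gene Flt3l stayed near background, between 6.285 and 7.86 on the 4 arrays.

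Kit, the receptor of stem cell factor, which is best known from mast cells and blood progenitors, was the one receptor past 2-fold between the genotypes with LPS. Its intensity was 312 in MARCO-/- DC and 99.97 in WT DC with LPS, and 201 in MARCO-/- DC and 189 in WT DC with PBS. The PBS arrays were nearly level at 1.06-fold, and the LPS arrays lay on either side of them. The MARCO-/- over WT ratio with LPS was 3.12-fold (log2 1.64), and 2.86-fold to 3.29-fold under the other scalings of the arrays. The LPS over PBS ratio was 1.56-fold higher in MARCO-/- DC and 1.89-fold lower in WT DC, so neither passed 2-fold, while the difference of the log2 ratios was 1.56. Ratios of opposite sign and of at least 1.5-fold in both genotypes were found for 0.842% of all genes, and a difference of the log2 ratios of at least 1 in size for 5.93% of all genes, with 3.4% of all genes on the positive side, where Kit and Lifr lay.

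Markers of mast cells and basophils, of blood progenitors and of some other cells were looked at beside Kit. None of 10 mast cell and basophil markers passed 2-fold in any comparison on its brightest probe set (1 other probe set of Gata2 was lower in MARCO-/- DC with LPS), their highest single intensity was 10.5, and their sum was 36.3 in MARCO-/- DC and 47.8 in WT DC with LPS, against 45.4 and 45.1 in MARCO-/- and WT DC with PBS. The 7 measured blood progenitor markers other than Kit summed to 367 in MARCO-/- DC and 308 in WT DC with LPS, and to 109 in MARCO-/- DC and 221 in WT DC with PBS. Most of that sum was Sox4, a transcription factor also used outside progenitors, at 294 and 246 in MARCO-/- and WT DC with LPS. The stromal and muscle markers were highest on the WT LPS array, where Kit was the lowest. In MARCO-/- and WT DC with LPS, erythroid markers summed to 6838 and 3995, and natural killer and innate lymphoid markers to 207 and 382. The part of these lists in the Kit ratio was not tested. Kitl, the gene of stem cell factor, was near background at 5.39 and 6.83 in MARCO-/- and WT DC with LPS, and 9.60 and 5.25 in MARCO-/- and WT DC with PBS, and 1 of its other probe sets was past 2-fold lower with LPS in MARCO-/- DC. Kit has 1 probe set, whose name ends in a_at, so no other probe set bears on its values.

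Of 12 measured transcription factor genes known to control Csf1r, Flt3 or Kit, 3 were at least 2-fold lower and 1 higher with LPS in MARCO-/- DC, and 4 were lower and none higher in WT DC. The median log2 ratio was -0.48 in MARCO-/- DC and -0.80 in WT DC. Cebpa, a factor of the myeloid lineage, was 4.18-fold lower in MARCO-/- DC and 3.78-fold lower in WT DC. Its values were 6.58 and 6.50 in MARCO-/- and WT DC with LPS, near background, against 27.6 and 24.6 with PBS. Ikzf1, which encodes Ikaros, was 2.19-fold lower in MARCO-/- DC and 2.41-fold lower in WT DC, though its other probe set missed 2-fold in both. Spi1, which encodes PU.1, had 99.2 and 73.7 in MARCO-/- and WT DC with LPS, against 161 and 147 in MARCO-/- and WT DC with PBS, and missed 2-fold in both genotypes. Myb, a factor of progenitors, was 5.92-fold higher with LPS in MARCO-/- DC, at 48.8 against 8.24 with PBS, while in WT DC it had 29.0 against 16.8 and missed 2-fold.

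Csf2rb, the beta chain shared by the receptors of GM-CSF, IL-3 and IL-5, was higher with LPS in both genotypes on all 3 of its probe sets. The brightest had an intensity of 1678 in MARCO-/- DC and 941 in WT DC with LPS, and 292 in MARCO-/- DC and 280.1 in WT DC with PBS. The PBS arrays were nearly level, both LPS arrays lay above them, and the MARCO-/- LPS array was the highest. This was 5.74-fold higher with LPS in MARCO-/- DC and 3.36-fold in WT DC. The second probe set had 444 and 274 in MARCO-/- and WT DC with LPS, against 66.8 and 67.3 in MARCO-/- and WT DC with PBS, and the third had 85.6 in MARCO-/- DC and 64.7 in WT DC with LPS, against 18.9 and 16.2 in MARCO-/- and WT DC with PBS. Over the 3 probe sets the LPS over PBS ratio ran between 4.52-fold and 6.64-fold in MARCO-/- DC and between 3.36-fold and 4.07-fold in WT DC. The ratio was the larger in MARCO-/- DC on each of them, and MARCO-/- over WT with LPS was 1.78-fold, 1.62-fold and 1.32-fold, all short of 2-fold.

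Csf2rb2, the near-identical neighbouring gene whose product is an IL-3 receptor beta chain of the mouse, had 799 in MARCO-/- DC and 431 in WT DC with LPS, and 124 in MARCO-/- DC and 123 in WT DC with PBS. Its LPS over PBS ratio was 6.43-fold in MARCO-/- DC and 3.52-fold in WT DC. It was the gene nearest to Csf2rb over the 4 arrays, at a distance of 0.12, ahead of Bclaf3 at 0.21 and Nsmce3 at 0.25. Since the 2 genes are so alike in sequence, how much of the signal of one probe set comes from the other gene is uncertain.

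**Figure D2:**
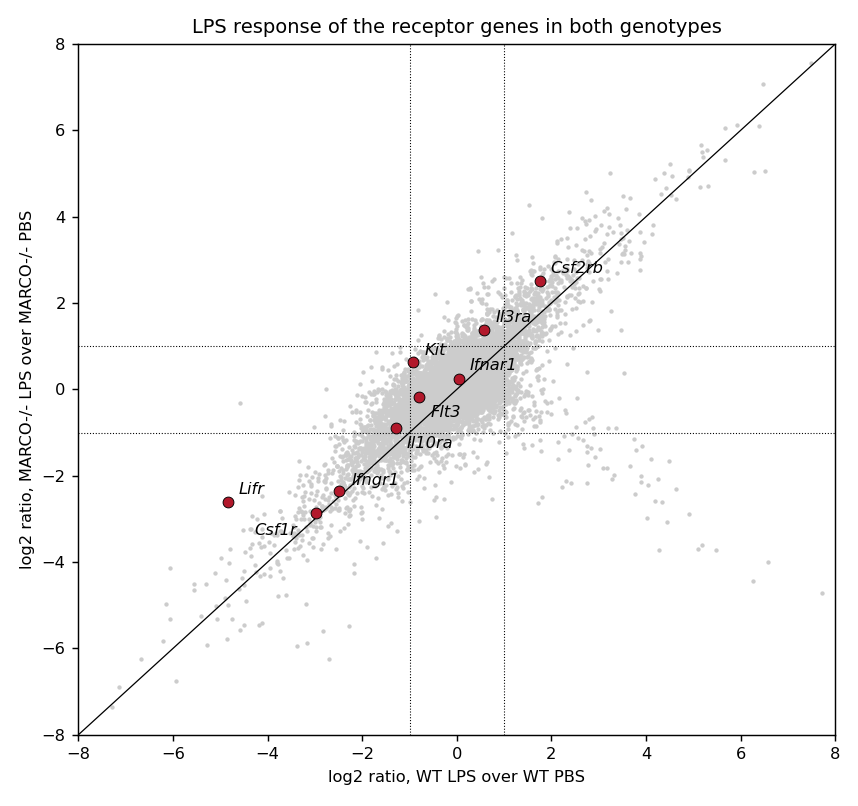
LPS over PBS log2 ratio of the 9 receptors (red points) in MARCO-/- DC on the vertical axis and in WT DC on the horizontal axis, over all 17097 genes (grey), with dotted lines at 2-fold and the diagonal of equal ratios; Csf1r and Ifngr1 lie near the diagonal at the lower left, Csf2rb lies above it at the upper right, and Lifr and Kit lie farthest from it, by 2.24 and 1.56.

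The ligand-binding partner Il3ra, the alpha chain of the IL-3 receptor, was dim but moved the same way. Its intensity was 17.7 in MARCO-/- DC and 12.02 in WT DC with LPS, and 6.77 in MARCO-/- DC and 8.02 in WT DC with PBS. Both LPS arrays were above both PBS arrays, which lay close to background. The LPS over PBS ratio was 2.61-fold in MARCO-/- DC and 1.499-fold in WT DC, so it passed in MARCO-/- DC alone, while the difference of the log2 ratios, 0.80, was not tested. Il5ra, the alpha chain of the IL-5 receptor, had 9.20 and 5.54 in MARCO-/- and WT DC with LPS, against 3.59 and 3.99 in MARCO-/- and WT DC with PBS, which is 2.56-fold higher in MARCO-/- DC from values at background. The ligand genes were dim as well. Csf2, which encodes GM-CSF, had 9.82 in MARCO-/- DC and 4.18 in WT DC with LPS (2.35-fold), and 3.60 in MARCO-/- DC and 3.65 in WT DC with PBS. Il3 was at most 2.30 and Il5 at most 4.62 on the 4 arrays, below the median of all intensities.

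Lifr, the receptor chain that binds leukemia inhibitory factor and signals with gp130, was the one receptor past 2-fold between the genotypes with PBS. Its brightest probe set had an intensity of 4.45 in MARCO-/- DC and 4.14 in WT DC with LPS, and 27.0 in MARCO-/- DC and 118 in WT DC with PBS. The WT PBS array stood above the other 3, and both LPS arrays were at background. MARCO-/- over WT with PBS was 4.38-fold lower. The LPS over PBS ratio was 6.06-fold lower in MARCO-/- DC and 28.5-fold lower in WT DC, and these folds are set by the floor: with values below the median of all intensities raised to it they were 5.54-fold in MARCO-/- DC and 24.3-fold in WT DC. The log2 ratios differed by 2.24, and of the genotype log2 ratios that make up this difference, the PBS one was -2.13 and the LPS one 0.10.

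The second Lifr probe set had 3.29 and 3.38 in MARCO-/- and WT DC with LPS, and 4.40 and 20.5 in MARCO-/- and WT DC with PBS. It repeated the pattern, with 4.67-fold lower values in MARCO-/- than in WT DC with PBS. The third was below the median on all 4 arrays, between 2.72 and 3.59, and bears on nothing. Several marker lists differed between the genotypes with PBS as well. Of the lists of other cells, 2 of 8 blood progenitor markers were at least 2-fold lower in MARCO-/- DC and none higher: Sox4 was 2.57-fold lower, on the brightest of its 5 probe sets and on none of the others, and Myb 2.03-fold lower. None of 6 plasmacytoid DC markers passed on its brightest probe set, 3 of the 6 had a ratio above 0, and the median log2 ratio was -0.18. Of these 6, Ccr9 was 1.93-fold lower, and 2 of its other probe sets passed 2-fold lower. Of 7 conventional DC 2 markers, 1 was higher and 1 lower, and of 8 natural killer and innate lymphoid markers, 1 was higher and 2 lower. All 8 skeletal muscle markers and 8 of 13 stromal markers were higher and none lower. So were 3 of 5 erythroid, 2 of 8 endothelial and 2 of 12 macrophage markers, again with none lower. Their part in the Lifr ratio was not tested.

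Genes as dim as Lifr were not among the 1592 compared with it over the 4 arrays. The nearest of those compared were Klf2 at a distance of 1.17, Klf4 at 1.21, both Krüppel-like transcription factors, and Marchf1, the ubiquitin ligase of MHC-II and CD86, at 1.37, while the nearest genes to Csf1r and Csf2rb lay within 0.25. Il6st, which encodes the shared chain gp130, had 105 and 97.5 in MARCO-/- and WT DC with LPS, and 121 and 135 in MARCO-/- and WT DC with PBS, on the brightest of its 3 probe sets, and 1 of the others was past 2-fold lower with LPS in WT DC. Lif had 14.3 in MARCO-/- DC and 7.41 in WT DC with LPS, and 5.51 and 5.10 in MARCO-/- and WT DC with PBS, which is 2.604-fold higher with LPS in MARCO-/- DC, though neither of its other probe sets passed. Osmr, the oncostatin M chain that also pairs with gp130, was at background, between 2.57 and 5.81.

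**Figure D3:**
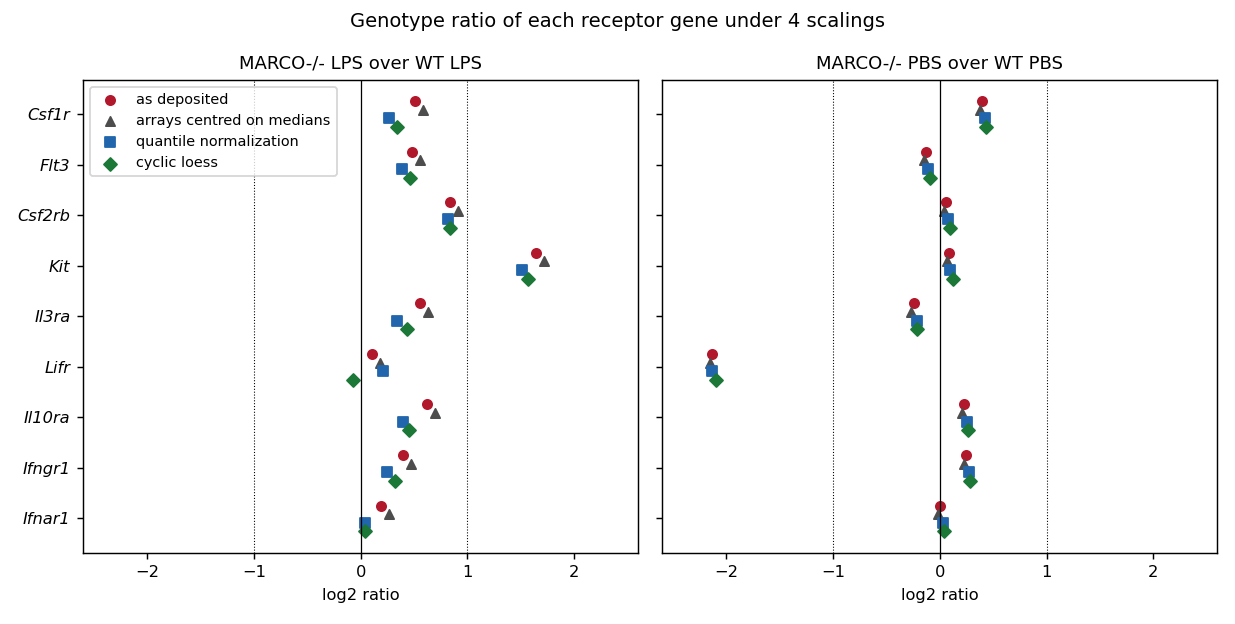
MARCO-/- over WT log2 ratio of each receptor with LPS (left panel) and with PBS (right panel), 1 point for each of 4 scalings of the arrays, with dotted lines at 2-fold. Kit with LPS and Lifr with PBS lie outside the lines under every scaling, and Lifr with LPS crosses 0 after cyclic loess.

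Il10ra, which binds IL-10 and signals the restraint of DC, was lower with LPS. Its intensity was 41.3 in MARCO-/- DC and 26.9 in WT DC with LPS, and 76.7 in MARCO-/- DC and 65.6 in WT DC with PBS. Both LPS arrays lay below both PBS arrays. The LPS over PBS ratio was 1.86-fold lower in MARCO-/- DC, which missed the threshold, and 2.44-fold lower in WT DC, with a difference of 0.39 between the log2 ratios. The ligand gene moved the other way: Il10 had 51.0 in MARCO-/- DC and 27.6 in WT DC with LPS, and 8.61 in MARCO-/- DC and 3.39 in WT DC with PBS. That is 5.93-fold higher with LPS in MARCO-/- DC and 8.16-fold higher in WT DC, where the PBS value is below the median of all intensities. The second chain of the receptor, Il10rb, had 155 and 142 in MARCO-/- and WT DC with LPS, and 184 and 138 in MARCO-/- and WT DC with PBS, and passed in no comparison.

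Ifngr1, the chain that binds interferon gamma, was lower with LPS in both genotypes by nearly the same factor. Its intensity was 98.5 in MARCO-/- DC and 74.8 in WT DC with LPS, and 500.5 in MARCO-/- DC and 421 in WT DC with PBS. Both LPS arrays lay well below both PBS arrays and well above background. Relative to PBS, the LPS values were 5.08-fold lower in MARCO-/- DC and 5.64-fold lower in WT DC, with a difference of 0.15 between the log2 ratios. The nearest genes over the 4 arrays were Evi2a, at a distance of 0.12, Man2b1, the lysosomal alpha-mannosidase, at 0.18, and H1f2, a linker histone, at 0.21. Markers of several cell types were lower with LPS beside it, in each genotype: those of macrophages and of monocytes and neutrophils given with Csf1r, 4 of 7 of conventional DC 2, 5 of 8 of natural killer and innate lymphoid cells, and 6 of 8 of conventional DC 1. Fewer were lower in some other lists: 1 of 6 of T cells in each genotype and none of 10 of mast cells and basophils. Of 6 plasmacytoid DC markers, 1 was lower and 1 higher in each genotype. Of 6 B cell markers, none was lower in MARCO-/- DC and 1 in WT DC. The conventional DC 1 markers summed to 852 and 934 in MARCO-/- and WT DC with LPS, against 2539.6 and 2894 in MARCO-/- and WT DC with PBS. Their part in the Ifngr1 ratio was not tested.

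The second chain, Ifngr2, did not share that pattern. It had 189 in MARCO-/- DC and 348 in WT DC with LPS, and 191 in MARCO-/- DC and 179 in WT DC with PBS, so the WT LPS array alone stood apart, at 1.95-fold over WT PBS. Ifng, the ligand gene, which T cells and natural killer cells express, was lower with LPS, at 9.42 and 16.8 in MARCO-/- and WT DC with LPS against 30.1 and 43.7 in MARCO-/- and WT DC with PBS. Markers of natural killer and innate lymphoid cells were lower beside it, in 5 of 8 in each genotype, with sums of 207 and 382 in MARCO-/- and WT DC with LPS against 617 and 934 in MARCO-/- and WT DC with PBS. Of 6 T cell markers, 1 was at least 2-fold lower with LPS in each genotype. The part of these markers in the Ifng ratios was not tested.

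Ifnar1, the chain of the type I interferon receptor that binds TYK2, was the flattest receptor. Its intensity was 74.8 in MARCO-/- DC and 65.4 in WT DC with LPS, and 63.5 in MARCO-/- DC and 63.4 in WT DC with PBS. The highest array was 1.18-fold over the lowest. Its partner Ifnar2 had 165 in MARCO-/- DC and 125 in WT DC with LPS, and 267 in MARCO-/- DC and 255 in WT DC with PBS, which is 2.04-fold lower with LPS in WT DC on the brightest of 3 probe sets and on neither of the others. The type I interferon genes measured were at background. Ifnb1 had 3.22 and 4.97 in MARCO-/- and WT DC with LPS, and 3.84 and 3.38 in MARCO-/- and WT DC with PBS. Ifna1, Ifna2 and Ifna4 were at most 2.92, 4.38 and 2.67 on the 4 arrays.

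With LPS, every one of the 9 receptors had the higher value in MARCO-/- DC, with a median log2 ratio of 0.51, although Kit alone passed 2-fold. Over all genes 48.5% had a ratio above 0 and the median was 0.00, and over the 4715 genes whose highest log2 value was at least 6, 64.5% did and the median was 0.13. The split of calls over all genes turned on the scaling: 357 genes were called higher and 224 lower as deposited (61.4% higher), 498 and 199 with arrays centred on their medians (71.4%), 232 and 263 after quantile normalization (46.9%), and 241 and 236 after cyclic loess (50.5%). The receptors' median was 0.58, 0.34 and 0.44 under these 3 scalings. All 9 stayed above 0 under the first 2 of them, and 8 after cyclic loess, where Lifr, at background, fell below. Of the 4715 brighter genes, 73.4%, 51.8% and 55.4% had a ratio above 0 under the 3 scalings in the same order. With PBS, 6 of 9 receptors were higher in MARCO-/- DC and their median was 0.06, against 0.01 over all genes. Without probe sets named x_at, s_at or a_at, 7 receptors were left and all had the higher value in MARCO-/- DC with LPS, with a median of 0.48. The 2 LPS arrays also differed in transcripts of other cells. The stromal and muscle markers summed to 64.9 and 35.6 in MARCO-/- DC with LPS, and to 1867 and 751 in WT DC with LPS. In MARCO-/- and WT DC with LPS, erythroid markers summed to 6838 and 3995, and macrophage markers to 605 and 419. B cell markers summed to 1568 and 2154, and natural killer and innate lymphoid markers to 207 and 382. Their part in these ratios was not tested.

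Downstream of the receptors, of 10 measured JAK kinase and STAT factor genes, 5 were at least 2-fold higher with LPS in MARCO-/- DC and 4 in WT DC, none was 2-fold lower, and the median log2 ratio was 0.79 in MARCO-/- DC and 0.66 in WT DC. Stat4, which relays IL-12 and type I interferon signals, had 1094 and 891 in MARCO-/- and WT DC with LPS, against 112 and 106 in MARCO-/- and WT DC with PBS, which is 9.79-fold higher in MARCO-/- DC and 8.39-fold in WT DC. Stat5a, which relays GM-CSF signals, was 3.70-fold higher in MARCO-/- DC and 3.82-fold in WT DC. Stat3, which relays IL-10 and LIF signals, was 3.74-fold and 2.80-fold higher in MARCO-/- and WT DC, though its other probe set missed 2-fold in both.

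The inhibitors split. Of 21 measured, 6 were at least 2-fold higher with LPS and 2 lower in MARCO-/- DC, and 4 higher and 4 lower in WT DC, with a median log2 ratio of 0.36 in MARCO-/- DC and 0.01 in WT DC. Socs2, a feedback inhibitor that STAT5 induces, had 2190.0 in MARCO-/- DC and 1469 in WT DC with LPS, and 145 in MARCO-/- DC and 212 in WT DC with PBS, and all 4 of its probe sets passed 2-fold in both genotypes. Its LPS over PBS ratio was 15.1-fold in MARCO-/- DC and 6.93-fold in WT DC. Usp18, an inhibitor at the type I interferon receptor, was 9.94-fold and 11.8-fold higher in MARCO-/- and WT DC, and Socs1, which blocks JAK kinases, 7.64-fold in MARCO-/- DC and 3.05-fold in WT DC, from values near background with PBS. Cish, a target of STAT5, was 2.62-fold higher in MARCO-/- DC and 3.90-fold in WT DC. Socs3, which blocks gp130 signalling, passed in neither genotype, at 69.6 and 48.2 in MARCO-/- and WT DC with LPS and 63.9 and 48.8 in MARCO-/- and WT DC with PBS. Lower in both genotypes were Inpp5d, the lipid phosphatase SHIP1, by 2.96-fold in MARCO-/- DC and 3.46-fold in WT DC, and Cbl, a ubiquitin ligase that sends receptor kinases for degradation, by 2.05-fold in MARCO-/- DC and 3.03-fold in WT DC, though 1 of its 3 probe sets missed 2-fold. None of the 21 passed 2-fold between the genotypes with either treatment on its brightest probe set, and for Socs6 1 other probe set was past 2-fold higher in MARCO-/- DC with LPS.

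**Figure D4:**
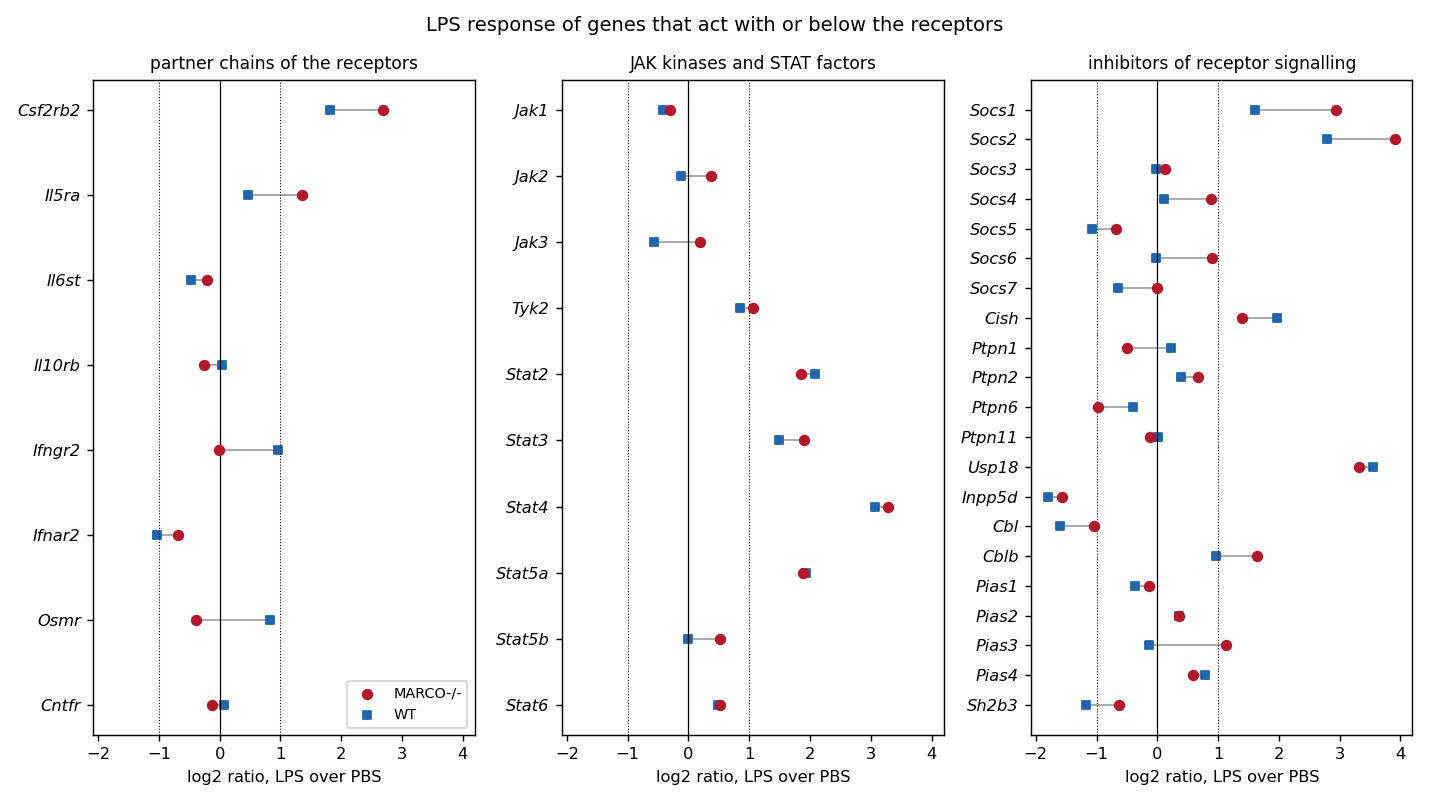
LPS over PBS log2 ratio of each measured partner chain, JAK or STAT gene and inhibitor in MARCO-/- DC (circles) and WT DC (squares), joined by a line for each gene, with dotted lines at 2-fold. Csf2rb2, Stat4, Socs2 and Usp18 lie past 2-fold in both genotypes, and Ifngr2 is near 0 in MARCO-/- DC and at 0.96 in WT DC.

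Targets of the receptors' signals did not move as one block. Of 24 measured targets of interferons, 20 were at least 2-fold higher and 2 lower with LPS in each genotype, with a median log2 ratio of 2.77 in MARCO-/- DC and 2.23 in WT DC. Oasl1 was 41.7-fold and 37.1-fold higher in MARCO-/- and WT DC, Ifit1 32.5-fold in MARCO-/- and 77.3-fold in WT DC, and Ido1 31.0-fold in MARCO-/- and 23.4-fold in WT DC, from PBS values near background for Ido1 in both genotypes and for Ifit1 in WT DC. The 2 lower targets were Cxcl9 and Ciita. Cxcl9, a chemokine, was 47.4-fold lower in MARCO-/- DC and 24.1-fold lower in WT DC. Ciita, the master regulator of MHC class II genes, was 5.76-fold lower in MARCO-/- DC and 5.87-fold in WT DC, though 1 of its 3 probe sets missed 2-fold in WT DC. Of these targets, 4 were past 2-fold higher in MARCO-/- than in WT DC with LPS and 3 with PBS, none lower, and Oasl2 had 375 and 174 in MARCO-/- and WT DC with LPS.

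Of 21 measured targets of GM-CSF, M-CSF, FLT3 ligand and IL-10 signalling, 7 were higher and 1 lower with LPS in MARCO-/- DC, and 4 higher and 2 lower in WT DC. Ccl22, a chemokine of activated DC, was 15.0-fold and 6.50-fold higher in MARCO-/- and WT DC. Cd209a, a lectin of DC that arise with GM-CSF, was 31.9-fold lower in MARCO-/- DC and 28.7-fold in WT DC, and both LPS values, 5.94 and 7.65, were near background. Cish and Socs2 stand in this list as well as among the inhibitors. With PBS, Ccl22 had 38.6 in MARCO-/- DC and 91.1 in WT DC (2.36-fold lower), and Nfil3, a transcription factor of DC development, had 109 in MARCO-/- DC and 242 in WT DC (2.23-fold lower).

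Of 24 measured other receptors of the same families, 2 were higher and 3 lower with LPS in each genotype, and none passed 2-fold between the genotypes. Over all genes 6.32% were higher and 5.98% lower in MARCO-/- DC, and 6.2% and 8.31% in WT DC. Only 11 of these 24 receptors were above the median of all intensities on every array. Il2ra, the alpha chain of the IL-2 receptor, had 92.3 and 85.8 in MARCO-/- and WT DC with LPS, against 3.03 and 2.88 in MARCO-/- and WT DC with PBS, so its PBS arrays were below background. Il15ra, which presents IL-15 to neighbouring cells, was 7.44-fold and 6.87-fold higher in MARCO-/- and WT DC. Il6ra, which pairs with gp130 as Lifr does, was 6.74-fold lower in MARCO-/- DC and 6.75-fold lower in WT DC, at 35.5 and 28.1 with LPS against 239 and 189.8 in MARCO-/- and WT DC with PBS, though its other probe set missed 2-fold in MARCO-/- DC. Il2rb, which IL-2 and IL-15 share, was 2.58-fold lower in MARCO-/- DC and 4.16-fold in WT DC, though its other probe sets missed 2-fold in WT DC. Among 7 genes for sheddases and receptor degradation, Cbl, given above, was lower with LPS in both genotypes. Its relative Cblb was 3.12-fold higher in MARCO-/- DC and 1.96-fold higher in WT DC, where its other probe set passed 2-fold. Timp3, an inhibitor of sheddases, had 4.95 in MARCO-/- DC and 18.2 in WT DC with LPS, and 12.6 in MARCO-/- DC and 6.75 in WT DC with PBS, so it was 2.55-fold lower with LPS in MARCO-/- DC and 2.69-fold higher in WT DC. The lower values were near background. Of its 4 probe sets, 1 other passed 2-fold in WT DC and no other passed in MARCO-/- DC. The stromal markers were also highest on the WT LPS array and second highest on the MARCO-/- PBS array, and their part in the Timp3 ratios was not tested.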

How the data were processed

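RNA of CD11c-selected spleen DC was measured on 4 arrays, 1 each for MARCO-/- LPS, WT LPS, MARCO-/- PBS and WT PBS. The deposited intensities had been background-corrected, normalized and summarized by the authors with RMAexpress (version not given in the sources used here). They are linear, and their log2 was used as such. The array is given as the Mouse Genome 430 2.0, although its probe set names bear the mark PM.

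Of 45141 probe sets, 104 controls were left out. Of the 45037 left, 28898 are annotated with 1 gene symbol, 551 with several and 15588 are not listed in the platform annotation. A gene was represented by its brightest probe set, the one with the highest mean log2 intensity, which gave 17097 genes. The members and lists were chosen with earlier results of these data known. Genes past 2-fold, the methods' threshold, were counted, and each list was described by these counts and its median. Named were all members with every probe set, some of their ligands, partner chains and inhibitors, at most 6 genes of each list past 2-fold, and the 3 nearest genes of the 4 members with the widest range. Other genes named were chosen after their values were seen. The alternatives were other scalings (centring, quantile, cyclic loess), other probe set summaries, folds of 1.5 and 3, a filter on dim genes, and a floor at the median of all intensities, added after seeing the data. The number of arrays limits the precision. The calculation was checked on simulated arrays with known ratios. Python 3.11.15 with numpy 2.4.6, pandas 2.3.3 and matplotlib 3.10.9, and R 4.3.3 with limma 3.58.1 were used.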

Additional observations from a re-analysis of the deposited data

Results flagged for a closer look

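Among the receptors, 4 had ratios of opposite sign under the same contrast. The share of all genes with such ratios was not counted, and ratios near 0 are included, so nothing about the receptors as a group is read from it. None of these differences was tested, since each condition has 1 array. The MARCO-/- over WT log2 ratio of Flt3 was 0.48 with LPS and -0.12 with PBS, a difference of 0.61. For Il3ra it was 0.56 with LPS and -0.25 with PBS, a difference of 0.80, with PBS values close to background. For Lifr it was 0.10 with LPS, where both values are background, and -2.13 with PBS, a difference of 2.24. The LPS over PBS log2 ratio of Kit was 0.64 in MARCO-/- DC and -0.92 in WT DC, a difference of 1.56.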

How the results depend on the processing

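Of 260 values of single receptors under other settings, 4 moved by over 1.5-fold, no value past 2-fold changed sign, and no receptor crossed 2-fold under another scaling or probe set summary. The 4 are those of Lifr with the mean of its probe sets: log2 -1.51 for MARCO-/- over WT with PBS, -1.07 and -2.47 for LPS over PBS in MARCO-/- and WT DC, and 1.40 for the difference. Values of at most 0.15 in log2 changed sign 6 times: the Ifnar1 ratio of MARCO-/- over WT with PBS was -0.02 after centring, that of Lifr with LPS -0.07 after cyclic loess and -0.11 with the mean of its probe sets, and the difference of the LPS ratios was -0.16 (quantile) and -0.09 (cyclic loess) for Csf1r and -0.02 (quantile) for Ifngr1. Of 74 counts and medians, 8 counts moved by over 1.5-fold. Counting only receptors with a highest log2 value of at least 8, which leaves 4, gave 0 calls between genotypes with PBS (1 in the main count), 2 for LPS in MARCO-/- DC (5) and 2 in WT DC (5). Counting every probe set gave 2 between genotypes with PBS and 8 for LPS in WT DC. Without probe sets named x_at, s_at or a_at, Kit has no value, the count between genotypes with LPS was 0 (1), and 1 receptor (2) differed by at least 1 between the LPS log2 ratios. At 1.5-fold, 3 receptors were called between genotypes with LPS. No paired analysis was possible because there is 1 array per condition and the labels carry no replicate numbers.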
